A study of Mus musculus with 768 samples.

Results

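Transcripts of 6 intermediate filament genes, the keratins Krt7, Krt8, Krt18, Krt19 and Krt23 and the vimentin gene Vim, were followed in mouse cochlear organoids. The genes were taken by symbol from the deposited count tables, which list 52636 genes and hold all 6. They were chosen with earlier results of these data known. The study picked organoid cells by hand into plates and sequenced each with SmartSeq2, which copies whole transcripts into cDNA and does not tag molecules before PCR. The cells derive from the greater epithelial ridge (GER, the cochlear epithelium on the inner side of the hair cells), which was enriched by cell sorting from postnatal day 2 mice carrying Sox2-GFP, Fgfr3-CreERT2 and Ai14-tdTomato. GFP is driven by Sox2 and the Cre recombinase by Fgfr3, and the labels do not say which signal the sort used or whether recombination was induced. Organoids were harvested after 1, 3 and 7 days in culture. All groups share these alleles and the same medium, which contained EGF, FGF2, IGF1, CHIR99021 (an inhibitor of GSK3), valproic acid (an inhibitor of histone deacetylases), 2-phospho-L-ascorbic acid and the TGFβ receptor inhibitor 616452. The comparison is therefore of time in culture, with day 1 as the earliest group and no culture without these agents used here. Cells of 1 day and replicate number were taken as 1 culture, which gave 3 cultures for day 1, 3 for day 3 and 5 for day 7. The labels do not say whether cultures came from separate animals, so p-values measure the spread between these cultures, which may be technical.

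Keratins build filaments only as pairs of a type II and a type I protein. Krt8 (type II) and Krt18 (type I) are the founding pair of simple, single-layered epithelia, Krt7 (type II) and Krt19 (type I) add to it in ducts and other simple epithelia, and Krt23 is a little-studied type I keratin. Vimentin is a type III protein that assembles with itself, is best known from mesenchymal cells, and is also present with keratins in supporting cells of the cochlea.

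Krt8 and Krt18 lie next to each other on chromosome 15 (GRCm38), with 23697 bases between them, although one is a type II and the other a type I gene. Krt7 lies 566384 bases from Krt8 on the same chromosome, Krt19 and Krt23 lie 647672 bases apart in the type I cluster on chromosome 11, and Vim is alone on chromosome 2. In the tables the genes are Krt8 (ENSMUSG00000049382.9), Krt18 (ENSMUSG00000023043.6), Krt7 (ENSMUSG00000023039.16), Krt19 (ENSMUSG00000020911.14), Krt23 (ENSMUSG00000006777.7) and Vim (ENSMUSG00000026728.9). For Krt19 (chr11:100140810-100148665, minus strand), Krt23 (chr11:99477974-99493137, minus strand) and Vim (chr2:13573927-13582826, plus strand), the gene version in the tables is that of the GENCODE M21 annotation used here. The versions of Krt8, Krt18 and Krt7 differ from it. In M21 they lie at chr15:101996698-102004482 (minus strand), chr15:102028180-102032027 (plus strand) and chr15:101411043-101430313 (plus strand). Start regions of 5 of the 6 genes were found in the RefSeq promoter table (GRCm38.p6), and Krt19 was not among them. Those of Krt8 and Krt18, which varied together over cells, and of Vim, which fell by day 7, are printed from 250 bases before to 10 bases after the annotated start. Capitals mark a TATA box (TATAAA) or a CCAAT box (CCAAT) on either strand.
Krt8 (chr15:102004333-102004592, minus strand): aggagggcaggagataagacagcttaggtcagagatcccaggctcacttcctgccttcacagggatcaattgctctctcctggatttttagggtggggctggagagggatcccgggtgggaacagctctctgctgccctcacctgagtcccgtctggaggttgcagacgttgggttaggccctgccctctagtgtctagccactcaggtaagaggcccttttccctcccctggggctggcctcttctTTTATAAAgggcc
Krt18 (chr15:102027966-102028225, plus strand): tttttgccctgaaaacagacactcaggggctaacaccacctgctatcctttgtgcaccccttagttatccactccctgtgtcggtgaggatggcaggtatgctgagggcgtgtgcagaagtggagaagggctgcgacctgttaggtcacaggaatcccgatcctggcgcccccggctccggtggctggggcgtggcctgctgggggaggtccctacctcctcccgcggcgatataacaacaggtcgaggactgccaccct
Vim (chr2:13574061-13574320, plus strand): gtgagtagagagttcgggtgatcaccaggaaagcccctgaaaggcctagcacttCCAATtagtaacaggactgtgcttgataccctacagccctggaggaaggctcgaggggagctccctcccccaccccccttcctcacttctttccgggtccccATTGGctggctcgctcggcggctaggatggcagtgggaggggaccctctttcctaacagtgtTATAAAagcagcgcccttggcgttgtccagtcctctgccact

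The search covered the window of 300 bases from 250 before to 50 after each start. Krt8 had TATAAA on both strands in overlapping copies that begin 3 and 1 bases before the annotated start, and Vim had 1 copy that begins 32 bases before it. Of 32544 RefSeq start regions of the same length, 13.6% held TATAAA. Vim also had CCAAT, which 37.4% of all regions held, 94 bases before its start and once more farther upstream. Krt18 and Krt23 had none of these motifs, nor a GC box (GGGCGG, in 35.9% of all regions) or an AP-1 motif (TGANTCA, in 7.79%). Krt7 had 4 GC boxes, of which the nearest begin 56 and 24 bases before its start. No AP-1 motif was found in any of the 5 windows. Krt8 and Krt18 thus shared none of the 4 motifs searched. A match or its absence describes only these letters.

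After 57 cells had been removed, 92.6% were retained (94.8%, 89.4% and 93.8% on days 1, 3 and 7), and a culture held between 26391412 and 72483565 reads over its retained cells. Reads per gene were summed over the cells of a culture and are given as CPM, the count per 1000000 reads after scaling by edgeR's TMM factors. Summed reads do not tell the number of cells with a transcript apart from its amount per cell, which is taken up with the single cells. The labelled cell type was checked against its markers. The 9 GER genes summed to between 9129.8 and 13656 CPM in the day 1 cultures, 3591 and 7435 CPM in the day 3 cultures and 2050.4 and 3914 CPM in the day 7 cultures, so that every day 7 culture lay below every day 1 culture. Most of the sum was Tectb on days 1 and 3 (means of 8308 and 3622 CPM), and Tecta was highest on day 7 (mean of 1546 CPM). The fall of the sum therefore largely follows Tectb. Of the 9, Ceacam16 was at 0 on days 3 and 7. The 6 epithelial genes summed to between 3260.25 and 4001 CPM on day 1, 2665 and 3587 CPM on day 3 and 1672 and 2395 CPM on day 7, and the day 7 cultures lay below all others. The 5 hair cell genes summed to at most 89.5 CPM. All but 5 retained cells had at least 10 CPM of Epcam or Cdh1. The cells were deposited in 2 files. The first holds the cells of culture 1 of days 1 and 3 and of all day 7 cultures but culture 5, so calls are also given within files.

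Vim and Krt19 fell in the cultures between the first days and day 7, and the main pair Krt8 and Krt18 was lower on day 7 than on day 3 in every culture without passing edgeR's test. The GER and epithelial marker sums were lower on day 7 as well, and their part in these differences was not tested. Between days 1 and 3 no gene of the set passed: 0 of 6 had an adjusted p under 0.05 in edgeR's quasi-likelihood test with Benjamini-Hochberg adjustment over 17466 genes, where 0.0115% of all genes were called, and 0 of 6 had an unadjusted p under 0.05. The DESeq2 test called 0 of 6 as well. Between days 1 and 7, 2 of 6 were called, Vim and Krt19, both lower on day 7 (7.11% of all genes were called in either direction). Between days 3 and 7 the same genes were called, again lower on day 7 (0.968% of all genes). Counting genes whose cultures did not overlap between the days gave 2 of 6 from day 1 to day 3 (Krt7 and Krt19, higher on day 3) against 18% of all genes. It gave 2 of 6 from day 1 to day 7 (Krt19 and Vim, lower) against 17.8%, and 5 of 6 from day 3 to day 7 (all but Krt23, lower) against 8.13%. The comparisons share cultures and are not independent of each other.

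**Figure D1:**
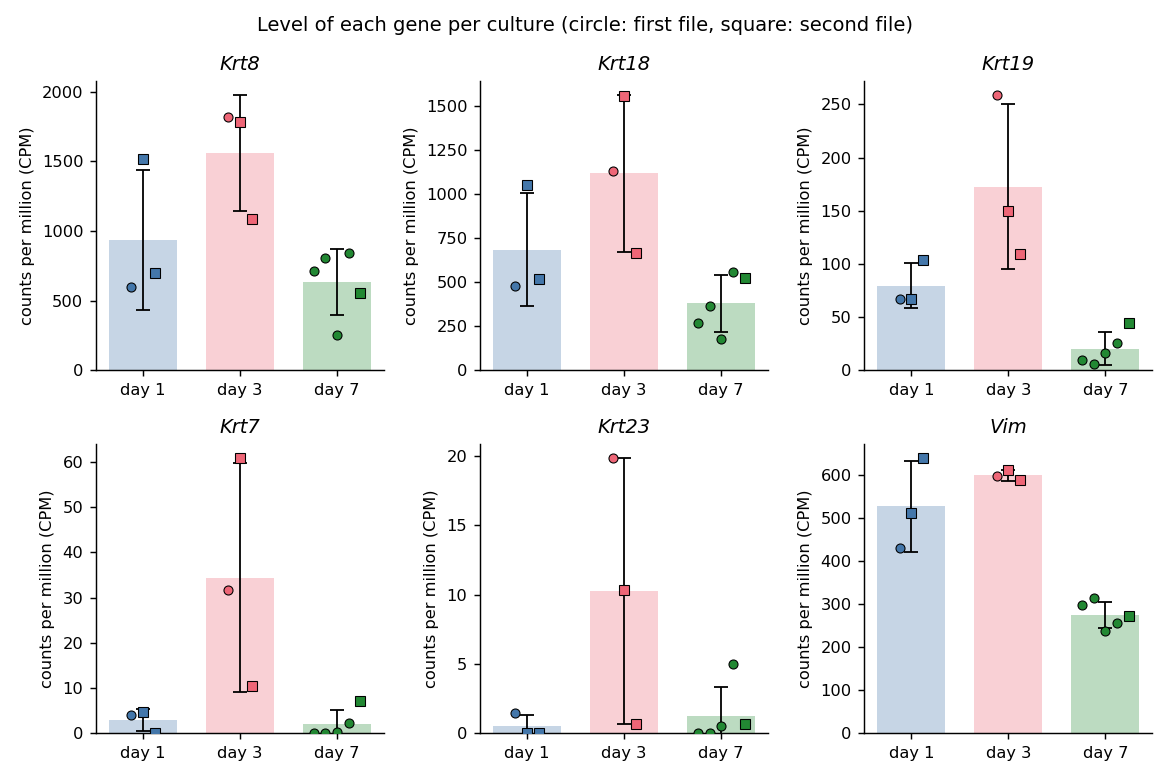
Level of each of the 6 genes in CPM (y axis, linear, from 0) on culture days 1, 3 and 7. Points are cultures (circles in the first file, squares in the second), bars the mean and error bars the SD. Vim lies between 237.2 and 313.3 CPM in the 5 day 7 cultures and at 431.3 CPM or more in the others, while Krt7 and Krt23 are near 0 in most cultures outside day 3.

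Krt8 was among the more abundant transcripts on all days. It was at 597.96, 1516 and 697.8 CPM in day 1 cultures 1 to 3, at 1822, 1783 and 1083 CPM in day 3 cultures 1 to 3, and at 711.6, 803, 255.3, 843 and 556.5 CPM in day 7 cultures 1 to 5. Day 1 culture 2 lay within the range of day 3, and days 1 and 7 overlapped, while all day 7 cultures were below all day 3 cultures. In edgeR's test the log2 fold change was 0.74 (SE 0.43, adjusted p = 0.661) from day 1 to day 3, -0.56 (SE 0.38, adjusted p = 0.399) from day 1 to day 7 and -1.30 (SE 0.37, adjusted p = 0.146) from day 3 to day 7. Within the first file the change from day 1 to day 7 had the other sign (0.07). Of the Krt8 values above 0, 51.3% were not whole numbers, as arises where a counter shares reads out between like sequences. Krt8-ps, annotated as a Krt8 pseudogene, had 2020 reads in all retained cells, and the Krt8 level is uncertain to the extent of such splitting.

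Krt18, the type I partner, had only whole counts and followed the same order of days as Krt8. Its levels were 480.4, 1053 and 520.002 CPM in the day 1 cultures, 1130, 1559 and 665.97 CPM in the day 3 cultures, and 270.1, 364.3, 178.2, 559.2 and 526.2 CPM in the day 7 cultures. Again day 7 was below day 3 without overlap, and day 1 overlapped both. In edgeR's test it differed by 0.71 on the log2 scale (SE 0.44, adjusted p = 0.699) from day 1 to day 3, -0.85 (SE 0.39, adjusted p = 0.203) from day 1 to day 7 and -1.56 (SE 0.38, adjusted p = 0.0881) from day 3 to day 7. Within the first and second files the change from day 3 to day 7 was -1.72 and -1.06 for Krt18 and -1.49 and -1.34 for Krt8. DESeq2 called it over all cultures, for Krt18 (adjusted p = 0.00152) and for Krt8 (adjusted p = 0.0101), and edgeR with no filter on low counts called it for Krt18 (-1.58, adjusted p = 0.0468).

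Krt19 was the only keratin called lower on day 7 in the main edgeR fit. It was at 67.2, 67.1 and 103.96 CPM in the day 1 cultures, at 258.97, 149.4 and 109.2 CPM in the day 3 cultures, and at 9.20, 5.74, 16.3, 25.7 and 44.1 CPM in the day 7 cultures. All day 7 cultures were below all others, and all day 3 cultures were above all day 1 cultures, although day 3 culture 3 was only slightly so. By edgeR's test day 7 was 3.92-fold lower than day 1 (log2 scale -1.97, SE 0.52, adjusted p = 0.0394) and 8.51-fold lower than day 3 (-3.09, SE 0.53, adjusted p = 0.0214). From day 1 to day 3 the log2 fold change was 1.12 (SE 0.60, adjusted p = 0.625).

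The fall of Krt19 from day 1 was close to the threshold. Leaving out 1 culture ended the call in 8 of 11 cases, with edgeR adjusted p = 0.0882, 0.0812 and 0.130 without day 1 cultures 1, 2 and 3, 0.0547 and 0.0516 without day 3 cultures 2 and 3, and 0.0639, 0.0717 and 0.0575 without day 7 cultures 1, 3 and 4. From day 3 it ended without day 3 culture 1 (adjusted p = 0.0723) or 2 (0.0640) or day 7 culture 1 (0.0553). With the file as a term in the edgeR fit the change was -1.84 (adjusted p = 0.0694) from day 1 and -3.06 (adjusted p = 0.0344) from day 3. Within the first file the log2 fold change from day 1 to day 7 was -2.27 (adjusted p = 0.227) and within the second -0.95 (adjusted p = 0.308). From day 3 to day 7 it was -4.17 (adjusted p = 0.306) in the first file and -1.53 (adjusted p = 0.198) in the second. The share of cells with proliferation transcripts, defined with the cell classes, was between 16.5% and 23.7% in the day 1 cultures, 54.2% and 67.9% in the day 3 cultures and 25.3% and 87% in the day 7 cultures. Without those cells the change of Krt19 from day 1 to day 7 was -0.83 (adjusted p = 0.488), and that from day 3 to day 7 was -2.48 (adjusted p = 0.0300).

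Vim fell from both early days and had the smallest spread between cultures, relative to its mean, on each day. It was at 431.3, 511.6 and 641.8 CPM in the day 1 cultures, at 599.2, 612.2 and 588.5 CPM in the day 3 cultures, and at 297.4, 313.3, 237.2, 255.3 and 271.8 CPM in the day 7 cultures. Every day 7 culture was below every other culture. Its mean was 528.2 ± 106.3 CPM in the 3 day 1 cultures (SD), 599.98 ± 11.9 in the 3 of day 3 and 274.997 ± 30.8 in the 5 of day 7. By edgeR's test day 7 was 1.92-fold lower than day 1 (log2 scale -0.94, SE 0.16, adjusted p = 0.00569) and 2.18-fold lower than day 3 (-1.13, SE 0.16, adjusted p = 0.00766). Between days 1 and 3 the log2 fold change was 0.18 (SE 0.18, adjusted p = 0.842). Leaving out any 1 culture kept both calls, with adjusted p between 0.00591 and 0.0314 against day 1 and between 0.00750 and 0.0373 against day 3. Both calls ended with limma on the mean log2 CPM per cell (-0.62, adjusted p = 0.0843, from day 1 and -0.95, adjusted p = 0.0587, from day 3). With the file as a term the edgeR values were -0.88 (adjusted p = 0.0132) from day 1 and -1.07 (adjusted p = 0.0199) from day 3. Within the files, which leave 1 culture for each early day in the first and 1 for day 7 in the second, Vim was not called. The log2 fold change from day 1 was -0.69 (adjusted p = 0.243) in the first and -1.08 (adjusted p = 0.116) in the second, and that from day 3 was -1.12 in each (adjusted p = 0.372 and 0.158). The lone culture of a day in such a fit is assumed to vary like the other day's.

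Vimentin is also a transcript of mesenchymal cells, so markers of other cell types are given beside it. The 11 mesenchyme genes summed to between 504.6 and 650.4 CPM in the day 1 cultures, 564.7 and 817 CPM in the day 3 cultures and 190 and 1074 CPM in the day 7 cultures, most of it Dcn (means of 554.8, 622.5 and 526.6 CPM), and 5, 0 and 2 of the 11 were at 0 in all cultures of the day. The 6 genes of glia summed to between 70.6 and 93.3, 58.3 and 95.3, and 89.9 and 110.4 CPM on the 3 days, led by Sox10, with Foxd3 at 0 in all cultures. Among retained cells 24 carried at least 3 mesenchyme genes at 10 CPM or more, 10 of these in day 7 culture 1, while 66 cells carried 3 glia genes and 2 cells 3 endothelial genes. The endothelial genes Pecam1, Kdr and Cldn5 were at 0 in all cultures, and the leukocyte genes summed to at most 9.12 CPM. In the cells with mesenchyme genes, thinned to a common depth, Vim had a median of 67 of 200000 reads, against 63 in the other cells. In the cells with glia genes the median was 73 reads. These medians pool all days. Most cells with mesenchyme genes came from day 7 cultures, where Vim was lower, and no median was taken within a day. Without the 91 cells that carried markers of another type, most of them glia genes, the log2 fold change of Vim was -0.91 from day 1 (edgeR adjusted p = 0.0120) and -1.14 from day 3 (adjusted p = 0.0172). The same step gave -1.92 (adjusted p = 0.0671) and -3.20 (adjusted p = 0.0326) for Krt19. All 66 cells with glia genes had reads of Krt8 and of Krt18. Of the 24 cells with mesenchyme genes, 22 had reads of Krt8 and 22 of Krt18. Leaving out the marked cells is therefore not the same as leaving out cells from outside the epithelium. Without proliferating cells, Vim changed by -0.95 from day 1 (adjusted p = 0.0167) and by -1.54 from day 3 (adjusted p = 0.00152).

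Krt7, a type II keratin of ducts, was at 7.17 CPM or less in every culture outside day 3. It was at 3.86, 4.63 and 0.0379 CPM in the day 1 cultures, at 31.8, 61.01 and 10.4 CPM in the day 3 cultures, and at 0, 0.0330, 0.253, 2.16 and 7.17 CPM in the day 7 cultures, where 3 reads would be 0.0929 CPM in day 7 culture 1. All 3 day 3 cultures were above all others, but the spread was wide and edgeR and DESeq2 called no comparison. With limma on the mean log2 CPM per cell, Krt7 was called from day 3 to day 7 (-0.55, adjusted p = 0.0268). By edgeR the difference on the log2 scale was 3.58 (SE 1.71, adjusted p = 0.562) from day 1 to day 3, -0.55 (SE 1.38, adjusted p = 0.859) from day 1 to day 7 and -4.13 (SE 1.43, adjusted p = 0.246) from day 3 to day 7. The change from day 1 to day 7 was 1.56 within the second file and 0.09 without proliferating cells, with no call in either. On day 3 it held 5682 reads over all cells.

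Krt23 was the least read gene of the set, with 49 reads in all on day 1 and 1827 on day 3. It was at 1.42 CPM in day 1 culture 1 and at 0 in day 1 cultures 2 and 3 and in day 7 cultures 1 and 2, where 3 reads would be between 0.0474 and 0.114 CPM. The day 3 cultures were at 19.9, 10.3 and 0.660 CPM, and day 7 cultures 3 to 5 were at 0.506, 4.98 and 0.614 CPM. The days overlapped in every comparison. By edgeR the differences on the log2 scale were 4.44 (SE 2.30, adjusted p = 0.610) from day 1 to day 3, 1.38 (SE 1.91, adjusted p = 0.724) from day 1 to day 7 and -3.06 (SE 1.78, adjusted p = 0.574) from day 3 to day 7. Without day 7 culture 4 the change from day 1 to day 7 was -0.74.

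**Figure D2:**
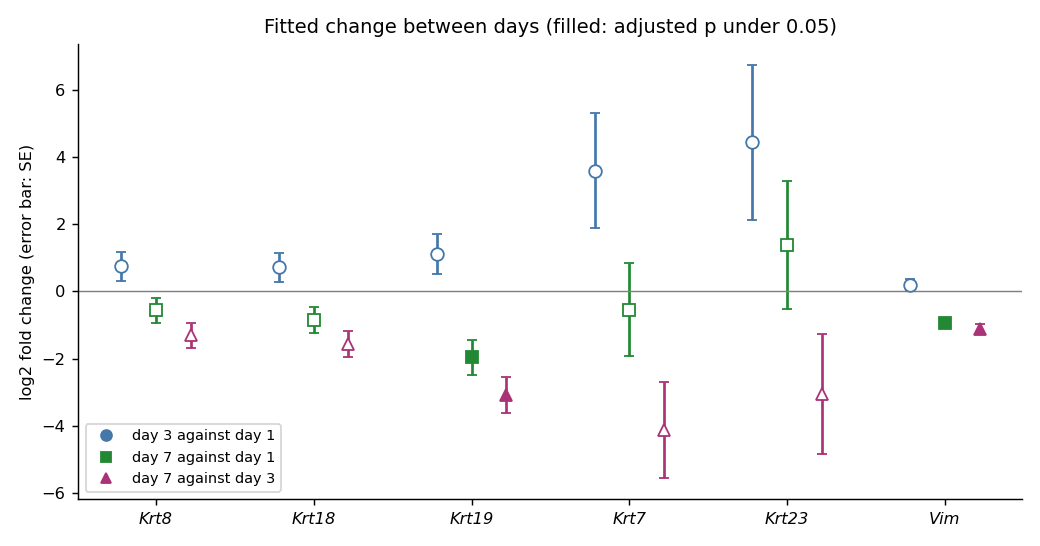
Fitted log2 fold change of each gene (y axis, linear) in the 3 comparisons of days, with its SE as error bar. Filled symbols have an adjusted p under 0.05, which holds for Krt19 and Vim in both comparisons with day 7. Krt7 and Krt23 have the widest error bars, with an SE of at least 1.38.

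Levels of different genes were set side by side as CPM per kb of merged exons. On day 1, Krt8 was at 478.7 ± 257.3 and Krt18 at 476.2 ± 222.4 CPM per kb (SD, n = 3), and these did not differ beyond their spread. Vim was next at 111.4 ± 22.4, then Krt19 at 42.8 ± 11.5, and all day 1 cultures had more Vim than Krt19. Krt7 at 0.403 ± 0.349 and Krt23 at 0.303 ± 0.525 overlapped. On day 3 the order was Krt8 (798 ± 212.3), Krt18 (778 ± 310.6), Vim (126.5 ± 2.499), Krt19 (93.004 ± 41.8), Krt23 (6.57 ± 6.13) and Krt7 (4.88 ± 3.60). Neighbours overlapped in it except Krt18 with Vim and Krt19 with Krt23. On day 7 it was Krt8 (323.8 ± 121.9), Krt18 (264.2 ± 113.5), Vim (57.98 ± 6.49), Krt19 (10.9 ± 8.30), Krt23 (0.779 ± 1.35) and Krt7 (0.273 ± 0.435, n = 5), with overlap between Krt8 and Krt18, between Krt19 and Krt23 at the ends of their ranges, and between Krt23 and Krt7. Divided by the longest coding transcript in place of merged exons, Vim came to 240.9, 273.6 and 125.4 CPM per kb on the 3 days, which leaves its place in the order of means as it was. With that length the overlap of Vim with its neighbours changed, since it lay above Krt19 in all day 3 cultures and overlapped Krt18 on day 7 (108.2 to 142.8 against 124.03 to 389.1 CPM per kb). Krt7 came to 8.40 CPM per kb on day 3, above Krt23 at 6.57, so the order of these 2 turned round there.

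Krt8 and Krt18 together made up 94.9% ± 2.47 of the keratin level per length of the 5 keratins on day 1, 93.8% ± 1.95 on day 3 and 97.9% ± 1.47 on day 7. Since both partners are needed for a filament, the ratio of type II (Krt8 and Krt7) to type I (Krt18, Krt19 and Krt23) was computed per culture. It was 0.895 ± 0.0992 on day 1, 0.947 ± 0.145 on day 3 and 1.25 ± 0.475 on day 7. The day 7 cultures ran from 0.731 in culture 5 to 1.88 in culture 1 and so covered the range of both other days. The ratio of Krt8 to Krt18 was between 0.776 and 1.93 over all cultures, with both ends on day 7. The 5 keratins per Vim, also per length, came to 9.16 ± 4.54, 13.2 ± 4.004 and 10.3 ± 3.78 on the 3 days, with overlap between all days. These ratios depend on the length chosen for Vim and were 4.27 ± 2.10, 6.19 ± 1.87 and 4.79 ± 1.75 with the longest coding transcripts, again with overlap.

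To look at single cells at 1 depth, the cells with at least 200000 reads (97.7% of those retained) were thinned at random to that number. At this depth 1 read is 5 CPM. Krt8, Krt18 and Vim were read in nearly every cell on each day. Krt8 was read in 95.7% ± 5.52, 94.9% ± 1.32 and 94.03% ± 4.42 of the cells of a culture on days 1, 3 and 7 (SD over cultures), Krt18 in 96.6% ± 2.08, 95.4% ± 2.28 and 97.3% ± 1.07, and Vim in 96.1% ± 5.77, 98.02% ± 2.33 and 96.8% ± 2.96. The shares of cells with Vim overlapped between all days, while its median level per cell was lower in every day 7 culture. The median cell of a culture had 381.7 ± 81.3 CPM of Vim on day 1, 471.7 ± 59.7 on day 3 and 246.5 ± 25.7 on day 7 (SD over cultures). All 5 day 7 medians were at 270 CPM or less, and all early ones at 310 CPM or more. For Krt8 the median cell had 413.3 ± 118.5 CPM on day 1, 631.7 ± 170.04 on day 3 and 388.5 ± 229.02 on day 7, with overlap between all days.

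Krt19 was read in a part of the cells that differed between days. It was read in 28 of 52, 45 of 85 and 11 of 38 cells of the day 1 cultures, in 52 of 84, 35 of 66 and 50 of 72 cells of the day 3 cultures, and in 11 of 39, 7 of 37, 21 of 69, 27 of 78 and 29 of 75 cells of the day 7 cultures. The mean share was 45.2% ± 14.1 for day 1, 61.5% ± 8.22 for day 3 and 30.2% ± 7.46 for day 7. These shares overlapped between days 1 and 3 and between days 1 and 7 but not between days 3 and 7. The median cell had no Krt19 read in any day 7 culture. The highest cell had 1470 CPM on day 1, 2660 on day 3 and 775 on day 7. The top 10% of cells of a culture held between 59.2% and 86.7% of its Krt19 reads, but only between 19.7% and 35.2% of its Vim reads and between 35.7% and 52.8% of its Krt8 reads.

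Krt7 and Krt23 were genes of few cells. Krt7 was read in 4, 7 and 0 cells of the day 1 cultures, in 7, 8 and 10 cells of the day 3 cultures and in 0, 0, 1, 4 and 4 cells of the day 7 cultures, and none of 38, 39 and 37 cells allows a share of up to 7.89%, 7.69% and 8.11%. Krt23 was read in 18 cells, of which 10 were on day 3 and 7 on day 7. Where Krt7 was read at all, the top 10% of cells held at least 91.98% of its reads. The highest cell had 2515 CPM of Krt7 and 1075 CPM of Krt23, both on day 3. Intervals and such limits cover counting error only, since reads are PCR copies.

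**Figure D3:**
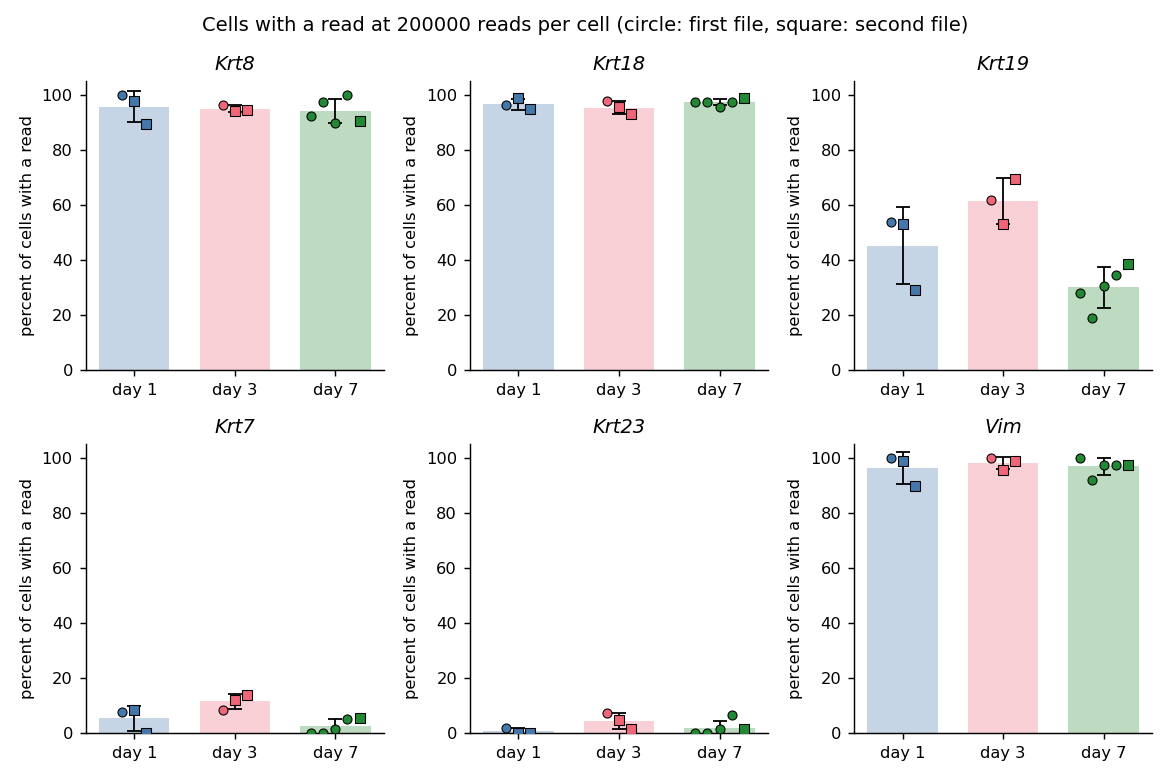
Percent of cells with a read of each gene after thinning to 200000 reads per cell (y axis, linear), by day. Points are cultures (circles in the first file, squares in the second), bars the mean and error bars the SD. Krt8, Krt18 and Vim are read in 89.5% of cells or more in every culture, Krt19 in 18.9% to 69.4%, and Krt7 and Krt23 in at most 13.9%.

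The genes were read together in most cells. Of the thinned cells, 92.5% had reads of both Krt8 and Krt18, while 17 cells had Krt8 without Krt18, 29 had Krt18 without Krt8, and 6 had neither. A keratin and Vim were read together in 96.8% of cells, Vim without any of the 5 keratins in 4 cells and a keratin without Vim in 17. Krt19, read in 45.5% of cells, was also read in 38 of the 45 cells with Krt7 and in 15 of the 18 cells with Krt23, while 4 cells had reads of Krt7 and Krt23. Over the cells of a culture, the Spearman correlation of Krt8 and Krt18 was between 0.32 and 0.88 in the 11 cultures, with a mean of 0.64. The mean was 0.35 for Krt8 and Krt19, 0.29 for Krt18 and Krt19, 0.24 for Krt8 and Vim and 0.16 for Krt19 and Vim. Cells of a culture share its library preparation, so these values describe the cultures.

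Genes most like each member were ranked by the same within-culture correlation among 9663 genes read in at least 20% of cells. Krt18 led for Krt8, followed by the pseudogene Krt8-ps, which shares sequence with it, and by Cldn6 (mean 0.46), a claudin of epithelial tight junctions. Krt8 led for Krt18, followed by the claudin genes Cldn4 (0.47) and Cldn3 (0.46). For Krt19 they were S100a6 (0.40), a calcium-binding protein gene, Anxa3 (0.38), an annexin gene, and Tmsb4x (0.37), which encodes the actin-binding thymosin beta 4. For Vim the values were lower, with Cnn2 (0.30), a calponin gene, Slc25a4 (0.27) and Gal3st3 (0.26). Over the 11 cultures, with 6626 genes of at least 20 CPM, Pearson's r of log2 CPM was 0.91 for Krt8 and Krt18, which led for each other. It was highest for Tpm2 (0.95), Anxa3 (0.95) and Pdpn (0.94) with Krt19 and for Schip1 (0.94), Rras (0.93) and Tmsb4x (0.93) with Vim. The 11 points fall into 3 days, so these values follow the days as well. For Krt7 and Krt23, near 0 in most cultures, the highest values over cultures were 0.91 (Sars) and 0.83 (Cep170b). Within cultures, where few cells had reads of these 2 genes, the correlation over cells reached at most 0.26, with Lgals3 for Krt7 (over 8 cultures) and with Gulp1 for Krt23 (over 7).

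Cells were next split within each culture by proliferation transcripts, taking cells with reads of 3 or more of the mitotic genes Birc5, Ccnb2, Cdk1, Mki67, Top2a and Tpx2 as proliferating. The class held 49.6% of the cells thinned (19.4%, 62.2% and 58.1% on days 1, 3 and 7), and the smaller class of a culture held at least 9 cells. Krt8, Krt18 and Krt19 were lower in proliferating cells. Of the 6 genes, 3 were called by edgeR with the culture as block, against 14.8% of the 11715 genes tested, and all 3 were lower, while the median over all genes was -0.05 on the log2 scale. Krt7 and Vim were tested and not called, and Krt23 was read too little to be tested.

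Krt8 was lower in the proliferating cells of 11 of 11 cultures. It ran from 432.2 to 806 CPM in proliferating and from 597.5 to 1594 CPM in other cells on day 1, from 651.4 to 1373 and from 1590.2 to 2435 CPM on day 3, and from 205.9 to 713.8 and from 442.6 to 1275 CPM on day 7. The groups did not overlap on day 3 and overlapped on the other days. By edgeR's test it was 1.84-fold lower (log2 scale -0.88, SE 0.08, adjusted p = 7.69e-07). The call ended when 2 proliferation genes sufficed for the class (-0.53, adjusted p = 0.0675). Krt18 was lower in 9 of 11 cultures (-0.55, SE 0.15, adjusted p = 0.0185). Its call ended without day 3 culture 1 (-0.46, adjusted p = 0.0606) and without day 7 culture 5 (-0.47, adjusted p = 0.0588). It also ended with the class from 2 genes (-0.36, adjusted p = 0.0700) and in the day 7 cultures alone (-0.51, adjusted p = 0.310).

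Krt19 had the largest called difference between the classes. It ran from 15.01 to 48.9 CPM in proliferating and from 64.9 to 113.8 CPM in other cells on day 1, from 38.3 to 201.4 and from 203.7 to 364.2 CPM on day 3, and from 2.30 to 8.97 and from 11.6 to 87.3 CPM on day 7. It was lower in proliferating cells in 11 of 11 cultures, without overlap between the classes on any of the days. By edgeR's test it was 4.03-fold lower (log2 scale -2.01, SE 0.28, adjusted p = 7.34e-05). Krt7 was lower in 7 and higher in 1 of the cultures (-2.35, SE 0.84, adjusted p = 0.0800), a difference called with no filter on low counts (-2.33, adjusted p = 0.00528).

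Between the classes Vim was called in day 3 cultures and not in those of day 7. On day 3 it was at 466.7, 472.2 and 409.3 CPM in proliferating and at 798, 820.0 and 833 CPM in other cells, a difference in the same direction in 3 of 3 cultures. In an edgeR fit of the day 3 cultures alone Vim differed by -0.84 on the log2 scale (SE 0.12, adjusted p = 0.00818). On day 7 Vim ran from 217.1 to 307.5 CPM in proliferating and from 262.9 to 312.96 CPM in other cells, was lower in 2 of 5 cultures, and the change was -0.10 (SE 0.13, adjusted p = 0.783). Over all days edgeR gave -0.35 (SE 0.12, adjusted p = 0.0557), which passed without day 1 culture 2 (-0.43, adjusted p = 0.0206), day 7 culture 1 (-0.42, adjusted p = 0.0286) or day 7 culture 2 (-0.41, adjusted p = 0.0329), with no filter on low counts (-0.34, adjusted p = 0.0281) and in DESeq2 (adjusted p = 0.0212). The difference between the day 7 and day 3 effects was tested with an interaction term, added after these values were seen. It was 0.75 (SE 0.19, p = 0.00163) for Vim and -1.42 (SE 0.43, p = 0.00584) for Krt19 in edgeR, and the adjusted p was 1.00 for each over 13439 genes, of which 0% were called (0 genes, with 3.97% at an unadjusted p under 0.05, and no other tool run). A difference of the class effect between days was therefore not shown.

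**Figure D4:**
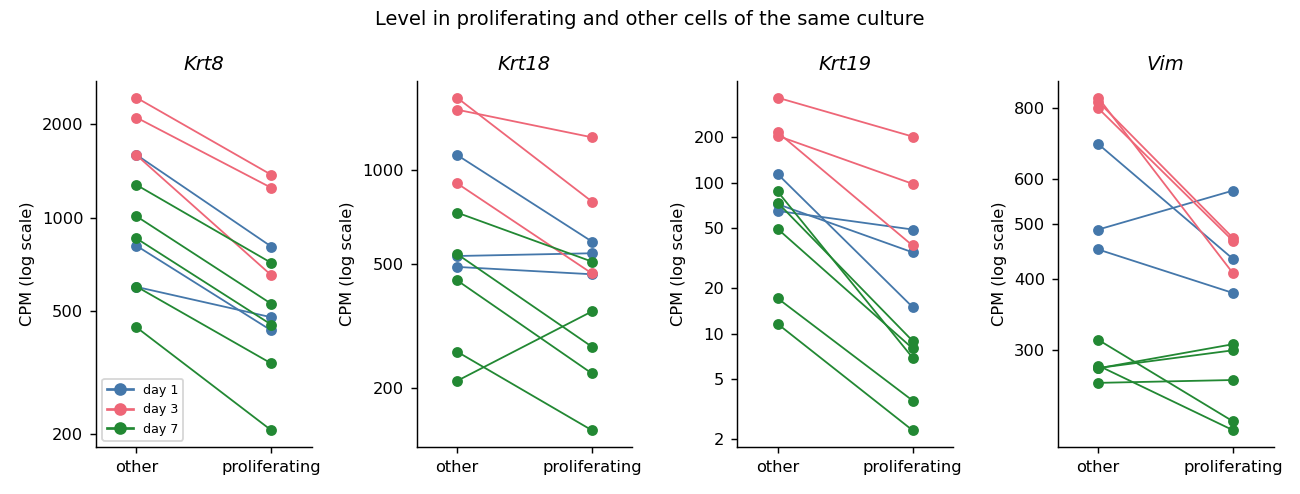
Level of 4 genes in CPM (y axis, log scale) in proliferating and other cells, with a line for each of the 11 cultures, coloured by day. Krt8 and Krt19 are lower in proliferating cells in 11 of 11 cultures, Krt18 in 9 and Vim in 7. The 3 day 3 lines of Vim fall from between 798.4 and 833.4 CPM, and the day 7 lines stay between 217.1 and 312.96 CPM.

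The 12 cells with transcripts of at least 2 hair cell genes, from 5 cultures, had a median of 35 of 200000 reads of Krt8, 24.5 of Krt18 and 51.5 of Vim. The other cells had medians of 88, 72 and 64 reads. Krt23 was read in none of the 12, which allows a share of cells with a read of up to 25%, and Krt7 and Krt19 were each read in 3. These cells share few cultures and were not tested.

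Of 19 other keratins in the tables, 5 had enough reads to be tested, and the remaining 14 were at 1.22 CPM or less in every culture, among them Krt5 and Krt14, the pair of basal cells of stratified epithelia. Of the 5, edgeR called 0 in each comparison, with 0, 2 and 3 at an unadjusted p under 0.05 from day 1 to day 3, day 1 to day 7 and day 3 to day 7. Of all 17466 genes, 1617, 4123 and 2066 had an unadjusted p under 0.05 in edgeR in these comparisons. The other tools called Krt17 (DESeq2) and Krt80 (both limma fits) from day 3 to day 7 and none of the 5 otherwise. The median log2 fold change of the 5 keratins was -0.29 from day 1 to day 3, -3.22 from day 1 to day 7 and -3.24 from day 3 to day 7. For all genes it was 0.02, 0.00 and 0.01. The median from day 1 to day 7 was the value of Krt80 alone, which was 4.14 within the first file. These medians thus rest partly on genes near 0 CPM. Krt17, a type I keratin of stressed epithelia, was the highest of the 5 at 9.95 ± 11.7, 20.3 ± 14.5 and 2.17 ± 1.84 CPM on the 3 days. From day 3 to day 7 it differed by -3.24 on the log2 scale (SE 0.97, adjusted p = 0.168 in edgeR), with adjusted p = 0.00922 in DESeq2. Krt15 was at 0 in all day 7 cultures and at 0.503 ± 0.596 CPM on day 1, Krt1 was at most at 0.719 CPM and Krt80 at most at 1.99 CPM.

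Of 8 other intermediate filament genes tested, edgeR called 2 from day 1 to day 7 and 1 from day 3 to day 7, and 0 from day 1 to day 3, where 3 had an unadjusted p under 0.05, limma called 0 and DESeq2 called Lmnb1 (1.71, adjusted p = 0.0425). The median log2 fold changes were -0.11, -0.48 and 0.13 in that order. Of all genes, edgeR called 7.11%, 0.968% and 0.0115% in the same order. Lmna, which encodes the A-type lamins of the nuclear envelope, fell from 98.8 ± 21.4 CPM on day 1 and 99.6 ± 25.6 on day 3 to 23.3 ± 6.08 on day 7 (edgeR, log2 scale -2.09, SE 0.25, adjusted p = 0.00117 from day 1, and -2.10, SE 0.25, adjusted p = 0.00290 from day 3). Lmnb1, a B-type lamin gene, rose from 12.1 ± 2.96 to 49.8 ± 29.9 CPM from day 1 to day 7 (2.04, SE 0.51, adjusted p = 0.0319). That call ended with the file as a term (1.42, adjusted p = 0.109), with limma on the mean log2 CPM per cell (1.91, adjusted p = 0.0662), without proliferating cells (0.92, adjusted p = 0.617) and without day 1 culture 1 (adjusted p = 0.117), 2 (0.0809) or 3 (0.117) or day 7 culture 3 (0.0672) or 4 (0.0658). Nes, the nestin gene, was at 46.96 ± 10.7, 47.5 ± 13.1 and 23.9 ± 13.2 CPM, and Synm, a partner of vimentin, at 6.43 ± 2.82, 2.82 ± 1.06 and 2.81 ± 1.08 CPM on the 3 days. EdgeR and DESeq2 called neither, and limma on the mean log2 CPM per cell called Synm from day 1 to day 7 (-0.36, adjusted p = 0.0211).

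Keratin filaments are anchored at desmosomes and linked by plakins. Of 17 such genes tested, edgeR called 1 from day 1 to day 7 (median -0.54) and 0 in the other comparisons (medians -0.20 from day 1 to day 3 and -0.31 from day 3 to day 7), where 2 each had an unadjusted p under 0.05 and DESeq2 and limma also called 0. A share of 7.11% of all genes was called by edgeR from day 1 to day 7, and 1 of 17 does not exceed it. From day 1 to day 7 DESeq2 called 3 and the limma fits 2 and 5, where they called 13.3%, 10.3% and 12.3% of all genes. Dst, a plakin gene, fell from 101.1 ± 40.5 CPM on day 1 to 30.7 ± 11.4 on day 7 (-1.72, SE 0.34, edgeR adjusted p = 0.0128), a call that ended without day 1 culture 3 (-1.40, adjusted p = 0.0628). Plec, which encodes plectin, the linker of both keratins and vimentin, was at 67.7 ± 25.6, 44.3 ± 9.15 and 35.04 ± 9.14 CPM (day 7 against day 1 -0.95, SE 0.28, adjusted p = 0.0600 in edgeR). It passed under 6 alternatives, among them DESeq2 (-1.03, adjusted p = 0.00794), the file as a term (-1.22, adjusted p = 0.0140) and thinned cells (-0.95, adjusted p = 0.0483). Pkp4 was at 286.4 ± 46.9 CPM on day 1 and 162.5 ± 72.4 on day 7 (-0.82, SE 0.29, adjusted p = 0.110 in edgeR). It too passed under 6 alternatives, among them DESeq2 (-0.89, adjusted p = 0.0335), both limma fits (adjusted p = 0.0388 and 0.0468) and leaving out day 7 culture 5 (-1.12, adjusted p = 0.0105), while within the second file it was 0.14.

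Of 13 tested regulators of the epithelial state, edgeR called 2 from day 1 to day 7, 1 in each direction (median -0.09), and 0 from day 1 to day 3 (median -0.18, 0 at an unadjusted p under 0.05 and 0 by DESeq2 and limma) or from day 3 to day 7 (median 0.26, 3 at an unadjusted p under 0.05). Over all genes edgeR called 7.11% from day 1 to day 7 and 0.968% from day 3 to day 7. From day 3 to day 7 DESeq2 called Klf5 (-1.21, adjusted p = 0.00316) and Gata3 (1.00, adjusted p = 0.00443). Klf5 also passed in edgeR among genes with at least 100 reads in 3 cultures (adjusted p = 0.0447). Gata3 also passed with limma on the mean log2 CPM per cell (adjusted p = 0.0228) and in edgeR without day 7 culture 4 (adjusted p = 0.0366). Klf5, an epithelial transcription factor gene, fell from 38.1 ± 9.43 to 11.1 ± 3.15 CPM from day 1 to day 7 (-1.79, SE 0.27, edgeR adjusted p = 0.00354). Gata3 rose from 280 ± 53.8 to 639.3 ± 155.6 CPM (1.19, SE 0.25, adjusted p = 0.0175), a call that ended without day 1 culture 1 (0.99, adjusted p = 0.0997) or 2 (1.24, adjusted p = 0.0565). Ovol2, which restrains mesenchymal genes, was at 8.32 ± 0.948 CPM on day 1 and 4.59 ± 1.72 on day 7 (-0.86, SE 0.40, adjusted p = 0.2197).

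Among 15 tested genes linked to epithelial to mesenchymal transition, of which Vim is commonly counted a marker, edgeR called 5 from day 1 to day 7 (2 higher and 3 lower, median -1.41), 2 from day 3 to day 7 (both lower, median -0.65) and 0 from day 1 to day 3 (median 0.17, 2 at an unadjusted p under 0.05). From day 1 to day 3 DESeq2 called Twist1 (5.58, adjusted p = 0.00542) and limma called 0. From day 1 to day 7, DESeq2 called 7 of the 15 and the limma fits 6 and 5. From day 3 to day 7, DESeq2 called 6 and the limma fits 1 and 2. Over all genes edgeR, DESeq2 and the limma fits called 7.11%, 13.3%, 10.3% and 12.3% from day 1 to day 7. From day 3 to day 7 they called 0.968%, 3.66%, 0.910% and 1.05%. Sparc, a secreted matrix protein gene, fell from 2725 ± 302.5 to 530.7 ± 320 CPM (-2.36, SE 0.36, edgeR adjusted p = 0.00325). Tgfb2, a TGFβ ligand gene, fell from 673.05 ± 113.6 to 252.5 ± 82.3 CPM (-1.41, SE 0.24, adjusted p = 0.00636). Tagln, a smooth muscle actin-binding gene, fell from 5.95 ± 6.01 CPM on day 1 and 9.44 ± 2.44 on day 3 to 0.0757 ± 0.0907 on day 7 (adjusted p = 0.00453 and 0.00983). Twist1, a transcription factor gene, was at no more than 0.0474 CPM on day 1 and at 6.86 ± 3.58 CPM on day 7 (adjusted p = 0.00707). The other gene that rose among those edgeR called was Mmp2, a matrix metalloproteinase gene named after its values were seen. It went from 100.3 ± 4.49 to 174.6 ± 43.6 CPM (0.80, SE 0.22, edgeR adjusted p = 0.0499). Its call ended on leaving out any of the 11 cultures (adjusted p between 0.0528 and 0.186). The other gene that edgeR called lower than on day 3 was Acta2, at 7.25 ± 6.29 CPM on day 3 and 0.0154 ± 0.0255 on day 7 (adjusted p = 0.0398). Leaving out 1 culture ended the call of Acta2 in 9 of 11 cases (adjusted p between 0.0569 and 0.139), in all but those without day 3 culture 3 and day 7 culture 4. It also ended with the file as a term (adjusted p = 0.0622), in both limma fits (0.112 and 0.295) and without cells of other types (0.0744). Without proliferating cells the calls from day 1 to day 7 ended for Dst (adjusted p = 0.169), Klf5 (0.135), Tgfb2 (0.116) and Twist1 (0.113) as well. Within either file alone, Lmna, Lmnb1, Dst, Klf5, Gata3, Sparc, Tgfb2, Tagln, Twist1, Mmp2 and Acta2 kept their direction, and only Sparc, in the second file, passed the test.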

How the data were processed

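Expected counts per gene and cell were deposited by the authors as estimated counts, and 10.6% of values above 0 are not whole. STAR 2.5.3a, RSEM 1.3.0 and the mm10 build of the mouse genome are named per the submitters' processing notes, and their roles and the annotation are not given in the sources used here. Here the counts were rounded, and 96 rows that name no mouse gene (92 spike-ins and 4 transgenes, 0.00451% of reads) were left out. Cells with under 50000 reads, under 1500 genes or over 20% mitochondrial reads were removed, and no doublets were called, since cells were picked by hand. No cells had identical values.

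Counts were summed per culture (day and replicate number) and compared in R 4.3.3 with the quasi-likelihood test of edgeR 4.0.16 (filterByExpr, TMM scaling, day as the design, all 11 cultures sharing 1 estimate of spread), with Benjamini-Hochberg adjustment over all genes and a threshold of 0.05. Counts of 17466 genes were also simulated for the 11 cultures, with changes between days 1 and 7 set only in genes with a mean above 20 CPM. The test recovered 29% of genes changed by 1 on the log2 scale and 92% of those changed by 2. Classes of cells were compared with the culture as a block. DESeq2 1.42.0, limma 3.58.1 (on log2 of CPM plus 1), other filters, the deposited file, other cell sets and leaving out cultures were tried as alternatives. Those within the first file, without cells with hair cell transcripts, the keratins per Vim with coding lengths, and the difference of the class effect between days were added after the data had been seen.

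Markers of another cell type were counted in a cell with at least 3 genes of that type's list at 10 CPM or more. Hair cell transcripts were counted in a cell with reads of at least 2 hair cell genes. From each gene list the text names up to 4 tested genes with the smallest adjusted p for day 7 against day 1 and 2 for each other comparison, leaving out predicted genes. Like genes were the 3 with the highest correlation. The 6 genes and the lists were chosen with earlier results of these data known.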

Additional observations from a re-analysis of the deposited data

Results flagged for a closer look

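Among the 5 day 7 cultures, culture 4 stood apart from the others in Krt23 by Dixon's test. Its level was 4.98 CPM, against 0.614 CPM in the nearest culture, and Krt23 was read in 6.41% of its thinned cells (5 of 78, exact 95% binomial interval 2.11% to 14.3%), against 1.45% in the nearest. The test was applied to 12 sets of day 7 values, the level and the share of cells for each of the 6 genes, and these were the 2 that passed. For normally distributed values chance alone flags about 1 in 20. Krt23 was at 0 in day 7 cultures 1 and 2, and the rate for such values was not worked out. Both flagged values come from the same cells.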

How the results depend on the processing

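The count of genes called from day 1 to day 3 was 0 of 6 under all 27 alternatives. From day 1 to day 7 it went from 2 to 1 with limma on mean log2 CPM (Vim lost), with the file as a term, without cells of other types and without proliferating cells (Krt19 lost in each), to 0 within either file, and to between 1 and 2 on leaving out single cultures. From day 3 to day 7 it went from 2 to 4 with DESeq2 (Krt8 and Krt18 gained), to 0 within either file, and to between 1 and 2 on leaving out single cultures. Krt18 was also gained from day 3 to day 7 with no filter on low counts. In that comparison limma on mean log2 CPM lost Vim and gained Krt7, and the replicate number as a block lost Vim and gained Krt18. From day 1 to day 7 the block gained Krt18, which gave 3. Between the classes the count went from 3 to 1 with at least 2 proliferation genes (Krt8 and Krt18 lost) and to 5 with no filter on low counts (Krt7 and Vim gained). Fewer cultures enter the fits within a file. The cause of the other shifts was not tested.

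No value that was called changed its sign. Uncalled log2 fold changes that did were Krt17 from day 1 to day 3 without proliferating cells (-0.42) and, from day 1 to day 7, Krt8 in the first file (0.0727), Krt7 in the second file (1.56) and without proliferating cells (0.0911), Krt23 in the first file (-0.0736), Krt80 in the first file (4.14), Pkp4 in the second file (0.14) and Synm without proliferating cells (0.0707). Leaving out single cultures moved Krt23 from day 1 to day 7 between -0.74 and 8.97 and Krt80 between -5.59 and 0.87. It moved the difference of the class effect between -0.17 and 0.11 for Krt8, -0.0436 and 0.48 for Krt18, and -1.65 and 7.46 for Krt23.

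The labels share replicate numbers across days, and the 9 pairs of cultures of the same number correlated weakly, between -0.01 and 0.06, none above 0.1. Only the pair of day 3 culture 3 and day 7 culture 3 was negative among them. The 30 other pairs correlated between -0.09 and 0.07, and most of these were negative. The values of a culture with the cultures of another day nearly cancelled. For day 1 culture 1 they were 0.049, -0.042 and -0.008 with day 3 cultures 1 to 3. A positive same-number pair therefore goes with negative other pairs. Values that cancel in this way describe departures from the mean of a day, not how alike whole cultures are. Of the 11 cultures, 5 correlated best with one of their own number, although not all have a partner of that number. Whether same-number pairs exceeded the others was not tested. With the replicate number as a block, edgeR also called Krt18 (-1.32, adjusted p = 0.00846, from day 1 to day 7, and -2.02, adjusted p = 0.00827, from day 3), and Vim from day 3 was -1.09 (adjusted p = 0.0542). The block also called Pkp4 (adjusted p = 0.0328) and ended the calls of Mmp2 (adjusted p = 0.0502), both from day 1 to day 7, and of Acta2 from day 3 (adjusted p = 0.194). The block called 0.126%, 5.90% and 0.550% of all genes in the comparisons of day 3 with day 1, day 7 with day 1 and day 7 with day 3.

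Depth limits Krt7 and Krt23 most, which had few reads outside day 3. In simulated data, changes by 1 on the log2 scale were mostly missed in genes with a mean above 20 CPM (29% recovered from day 1 to day 7). Recovery of changes in genes with lower means was not simulated. Without thinning, Krt8 was read in 96.7% of day 3 cells. Over all alternatives the calls ran from 0% to 1.48%, from 0.0794% to 13.3% and from 0% to 3.66% of all genes in these comparisons, with the highest share by DESeq2 and the lowest within the first file (for day 3 with day 1 also without day 3 culture 1 or 3).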
